A study of Homo sapiens with 13 samples.

Results

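A549 cells, an established line from a human lung adenocarcinoma, that stably carried a lentivirus for the microRNA miR-301a (library LV-miR301a) were set against A549 cells with the control lentivirus (LV-vector-34). The genes described are those with at least 20 reads over both libraries and at least 1 CPM (counts scaled to the size of the library) in either, which were 14776 of the 39736 genes in the table. The series holds 13 poly(A) RNA libraries of A549, 1 per group, and asks how PRR11, SKA2, miR-301a and miR-454, which are transcribed from one region of chromosome 17, act in lung cancer. The table used here holds 7 of them, which are both lines above, LV-miR454 (miR-454 lentivirus), LV-3+4 (both microRNAs), and the CRISPRd lines CRISPRd_Control, CRISPRd_miR301a-#2 and CRISPRd_miR454-#1, the last pair labelled as knockouts of one microRNA precursor each. Expression in the lentiviral lines is from the CMV promoter of a pCDH vector. The sources do not say whether a line is a pool of cells or 1 clone, and the labels name no further treatment, allele or time. Each group is 1 library, so every ratio compares 2 libraries and none has a replicate check.

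MicroRNAs guide Argonaute proteins to messages that hold, mostly in the 3′ untranslated region (UTR), a match to the seed, the bases near the 5′ end of the microRNA. A match shortens the life of the message or lowers its translation, usually by a small amount per site. MicroRNAs with the same seed form a family that reads the same sites, and miR-301a belongs to the miR-130 and miR-301 family, whose reported targets include receptors and mediators of the TGF-beta pathway.

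The mature strands are shown because a shared seed means that miR-301a and miR-454 address the same sites. The sequences are from RefSeq on GRCh38.p14, 5′ to 3′, with the seed (bases 2 to 8) in capitals, and all 4 hold the seed AGUGCAA.
miR-301a-3p: cAGUGCAAuaguauugucaaagc
miR-454-3p: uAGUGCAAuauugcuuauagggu
miR-301b-3p: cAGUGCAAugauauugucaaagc
miR-130b-3p: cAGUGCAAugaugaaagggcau

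The sites that pair with this seed were searched on the message strand only. They were TTGCACTA (8mer), TTGCACT (7mer-m8) and TGCACTA (7mer-A1). An 8mer contains both shorter words and was counted once, as an 8mer. Of the longest 3′ UTRs of 19120 coding genes (GENCODE release 29, GRCh38), 17.3% held a site and 2.80% held an 8mer. The windows below are 30 bases of the UTR around the site of 4 reported targets with an 8mer and of 1 with a 7mer-m8 as its best site, with the site in capitals. They are shown because the levels of these 2 kinds of target differ in the results further on.
ACVR1, an activin and BMP receptor, 8mer, chr2:157737097-157737126, minus strand: gcttctcttctttaTTGCACTAggaattct
INHBA, the activin A subunit, 8mer, chr7:41688684-41688713, minus strand: taatcgtttactatTTGCACTAcaatggtg
RUNX3, a transcription factor, 8mer, chr1:24899633-24899662, minus strand: gggtggaaactgctTTGCACTAtcgtttgc
PPARG, a nuclear receptor of fat metabolism, 8mer, chr3:12434173-12434202, plus strand: ttcccttcttccagTTGCACTAttctgagg
TGFBR2, the type II TGF-beta receptor, 7mer-m8, chr3:30691851-30691880, plus strand: atagccaataacatTTGCACTttattaatg

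The targeted locus was read first. MIR301A (chr17:59151136-59151221, minus strand) lies within SKA2, and its reads here are fragments of polyadenylated transcripts over the locus, not mature microRNA. MIR301A had 29 counts in LV-miR301a, 34 in LV-3+4 and 0 in each of the other 5 libraries. Taken against 3 counts in the vector, which are 0.157 CPM there, the LV-miR301a level of 1.49 CPM was at least 9.48-fold higher. MIR454 (chr17:59137758-59137872, minus strand) also had reads in LV-miR301a, 28 counts, at least 9.16-fold above the vector taken at 3 counts (interval from 6.97-fold). It had 468 counts in LV-miR454, 0 in the library labelled LV-3+4 and 0 in the vector and the CRISPRd libraries. The MIR454 reads thus go against the labels of LV-miR301a, which should carry miR-301a alone, and of LV-3+4, which should carry both. The label LV-miR301a is used below for the library as deposited, and what follows holds for a library with reads of both loci. The genes of the family elsewhere, MIR301B, MIR130A and MIR130B, had 0 counts in all 7 libraries.

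The endogenous unit differed by less than its counting error. SKA2, the host gene and a subunit of a kinetochore complex, had 1160 counts in LV-miR301a and 1206 in the vector, or 94.4% of the vector (exact 95% interval 87.0 to 102%). PRR11, a cell cycle protein, had 2698 and 2671 counts, or 99.1% (93.9 to 105%). All intervals are Clopper-Pearson intervals of the read counts and cover counting error only. The 21 measured neighbours on 17q22 had a median log2 ratio of -0.00, with 0 called by the rule given next.

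A gene was called when its ratio of CPM plus 0.5 was at least 2-fold and the counting interval of the ratio excluded equality. In LV-miR301a against the vector, 52 genes were called higher (0.352% of those measured) and 55 lower (0.372%), together 0.724%. The median log2 ratio over all 14776 genes was 0.00, and 50.1% lay above 0. LV-miR454 differed more from the same vector, with 6.38% of its measured genes called (2.96% higher, 3.41% lower), while LV-3+4 had 0.639% (0.279% higher, 0.36% lower). With a line at 1.5-fold in place of 2-fold, 213 genes (1.44%) were higher and 167 (1.13%) lower in LV-miR301a. Log2 ratios are on the scale of CPM plus 0.5 and understate the change of low genes, and folds are plain CPM ratios. Most calls were at low levels, since 67 of the 107 lay below 2 CPM on average over both libraries and 1 lay at or above 100 CPM. That gene was SENP3.

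**Figure D1:**
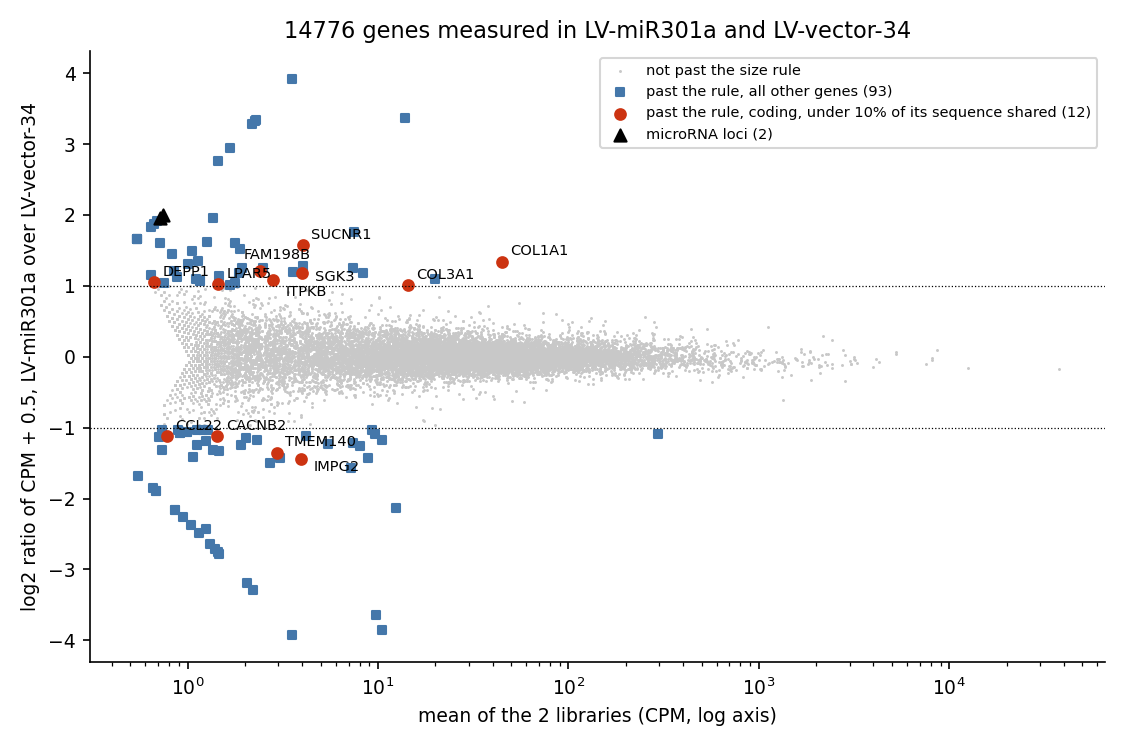
Log2 ratio of CPM + 0.5 (LV-miR301a over LV-vector-34) against the mean CPM of both libraries on a log axis, 1 point per gene, with dotted lines at a 2-fold difference. The 12 called coding genes that share little sequence with other genes are red, the microRNA loci are black triangles, and the 93 other called genes are blue squares that lie mostly at low levels.

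What the called genes are was asked next. Of the 107, 41 were coding genes with a symbol of their own, which is 0.338% of the 12139 measured genes of that class. A further 18 were readthrough genes, in which 2 neighbouring genes are annotated as 1 transcript, and these were 21.2% of the 85 measured. The rest were 32 non-coding genes, pseudogenes or symbols without a match, 14 symbols that the table lists in numbered copies, and both microRNA loci. Of 38 called coding genes found in the annotation, 26 (68.4%) shared at least 10% of their 32-base words with transcripts of other genes. Over all measured coding genes of that class the share was 14.7%. Over all 107 calls this comparison is void, because only 79.4% had a matched transcript. RSEM, which made the counts, divides reads that fit several genes by estimation. Its part in the calls was not tested.

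Levels summed over genes that share sequence are given as a description. SULT1A3 and SULT1A4 are duplicated genes of a phenol sulfotransferase on chromosome 16. SULT1A3 was at 2.04 CPM in the vector and 25.8 CPM in LV-miR301a, 12.7-fold higher (9.13 to 18.01), and SULT1A4 at 20.5 and 4.26 CPM, 4.80-fold lower (3.78 to 6.16). Both genes and their readthrough genes together had 48.9 and 43.4 CPM, a log2 ratio of -0.17. CDRT4 had 0 counts in the vector and 138 in LV-miR301a (at least 45.1-fold higher), and the readthrough gene TVP23C-CDRT4 was 2.22-fold lower, at 13.3 and 6.01 CPM. With TVP23C they summed to 17.8 and 18.5 CPM.

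Sums for 6 further groups follow, and the partners of all 8 were chosen after values were seen. The called gene is a small part of the sum for RAD51L3-RFFL, BCL2L2-PABPN1 and SERF1A, whose sums would lie near equality in any case. RAD51L3-RFFL had 135 counts in the vector and 0 in LV-miR301a (at least 45.9-fold lower), and with RAD51D and RFFL the sums were 78.6 and 78.2 CPM. BCL2L2-PABPN1 was 2.54-fold higher (1.95 to 3.33), and with BCL2L2, a survival protein, and PABPN1 the sums were 164 and 160 CPM. C4A, a complement component, had 44 and 0 counts, at least 14.9-fold lower, with sums of 2.302 and 2.16 CPM over C4A and C4B. SERF1A had 0 and 89 counts, at least 29.1-fold higher, with sums of 31.5 and 28.5 CPM over SERF1A and SERF1B. SMN1 and SMN2, the near-identical survival motor neuron genes, were not called, with log2 ratios of 0.71 and -0.64, and summed to 99.3 and 92.3 CPM. SENP3, a SUMO protease, was at 400 CPM in the vector and 187 CPM in LV-miR301a, 2.13-fold lower (2.05 to 2.22), and with EIF4A1 and their readthrough the sums were 1559 and 1263 CPM. That last sum is the only one of the 8 that differed by more than 0.2 on the log2 scale (-0.30).

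Other genes that the rule for named genes picked belong to this kind. RAB43, a small GTPase, was at 3.14 CPM in the vector and 11.9 CPM in LV-miR301a (3.78-fold, 2.83 to 5.11) with 81.3% of its words shared. ACOT1, an acyl-CoA thioesterase, was 2.75-fold higher with 65.0% shared, and FSBP, GOLGA8T and UGT1A1 were 2.40-fold, 2.61-fold and 2.17-fold higher with 86.4%, 98.4% and 51.2% shared. UGT1A1 conjugates bilirubin and shares its last exons with the other UGT1A genes. Lower genes of this kind were RGPD6 (3.24-fold), NPIPB13 (2.87-fold), FAM156A (2.36-fold) and SCLY, selenocysteine lyase (2.14-fold). The readthrough genes RTEL1-TNFRSF6B, C7orf55-LUC7L2, PHOSPHO2-KLHL23 and DNAAF4-CCPG1 were 2.55-fold, 2.48-fold, 2.56-fold and 2.40-fold lower.

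The vector library stood apart in the RNA of the signal recognition particle. RN7SL1 was at 18.5 CPM in the vector, 1.03 CPM in LV-miR301a and 1.62 to 5.07 CPM in the other 5 libraries. RN7SL2 was at 20.04 CPM in the vector, 0.924 CPM in LV-miR301a and 0.418 to 0.898 CPM elsewhere. Both were called lower, 18.04-fold (11.5 to 29.9) and 21.7-fold (13.5 to 37.0), and for both it is the control that is far from all other libraries.

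The called coding genes with under 10% of their sequence shared numbered 12, with 8 higher and 4 lower, a limit set after the calls were seen. SGK3 lies just under that limit, with 9.98% shared. COL1A1 encodes the alpha 1 chain of type I collagen, the main fibrillar collagen. It was at 25.01 CPM in the vector and 64.1 CPM in LV-miR301a, 2.56-fold higher (2.31 to 2.85). The level was 33.1 CPM in LV-3+4, 75.5 CPM in LV-miR454, 14.5 CPM in CRISPRd_Control, 10.2 CPM in CRISPRd_miR301a-#2 and 15.7 CPM in CRISPRd_miR454-#1. The vector was the lowest of the 4 lentiviral libraries for COL1A1, and LV-miR454, with no MIR301A reads, was the highest. COL3A1, the chain of type III collagen, was at 9.31 CPM in the vector and 19.3 CPM in LV-miR301a, 2.07-fold higher (1.72 to 2.48). Its level was 14.7 CPM in LV-3+4, 3.17 CPM in LV-miR454 and 0.216 to 0.355 CPM in the CRISPRd libraries. For COL3A1 both libraries with MIR301A reads lay above both without them.

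SUCNR1, the receptor for extracellular succinate, was at 1.78 CPM in the vector and 6.26 CPM in LV-miR301a, 3.52-fold higher (2.39 to 5.31). The other lentiviral libraries had 3.08 CPM (LV-3+4) and 1.85 CPM (LV-miR454), and the CRISPRd libraries 0.355 to 0.431 CPM, so LV-miR301a was the highest of all 7. SGK3, a kinase activated through PI3K, was at 2.25 CPM in the vector and 5.75 CPM in LV-miR301a, 2.56-fold higher (1.78 to 3.72). It was at 1.93 CPM in LV-3+4, 6.29 CPM in LV-miR454 and 4.05 to 5.12 CPM in the CRISPRd libraries. The low levels of SGK3 were those of the vector and LV-3+4. ITPKB, an inositol trisphosphate kinase, was at 1.62 CPM in the vector and 4.00 CPM in LV-miR301a (2.47-fold, 1.61 to 3.87), with 3.97 CPM in LV-3+4 and 4.49 CPM in LV-miR454. For ITPKB the vector was lower than the other 6 libraries. FAM198B was at 1.26 and 3.54 CPM (2.82-fold, 1.75 to 4.69), with 1.57 CPM in LV-3+4, 3.33 CPM in LV-miR454 and 23.6 and 35.2 CPM in both knockout libraries. LPAR5, a receptor for lysophosphatidic acid, was at 0.785 and 2.10 CPM (2.68-fold, 1.45 to 5.22), and DEPP1, a gene induced by FOXO factors, had 5 and 21 counts (4.12-fold, 1.51 to 13.99). DEPP1 was at 0.262 CPM in the vector, 1.08 CPM in LV-miR301a, 0.992 CPM in LV-3+4 and 0.158 CPM in LV-miR454. For SUCNR1 and DEPP1, as for COL3A1, both libraries with MIR301A reads lay above LV-vector-34 and LV-miR454. These genes were called because LV-miR301a lay above the vector, and the share of all genes with such a split was not counted.

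The 4 lower genes were all at low levels. IMPG2, a proteoglycan known from the retina, was at 6.02 CPM in the vector and 1.90 CPM in LV-miR301a, 3.17-fold lower (2.17 to 4.72), with 1.36 CPM in LV-3+4 and 5.70 CPM in LV-miR454. Both libraries with MIR301A reads thus had less IMPG2 than both without, while CRISPRd_Control had 1.82 CPM and CRISPRd_miR301a-#2 0.808 CPM. TMEM140 was at 4.45 and 1.44 CPM, 3.09-fold lower (2.00 to 4.93), with 2.19 CPM in LV-3+4 and 0.951 CPM in LV-miR454, so the vector was the highest of the lentiviral libraries. CACNB2, a calcium channel subunit, was at 2.15 and 0.719 CPM, 2.98-fold lower (1.59 to 5.93), and CCL22, a chemokine that binds CCR4, had 24 and 6 counts, 4.08-fold lower (1.62 to 12.2). CACNB2 was at 1.51 CPM in LV-3+4 and 1.53 CPM in LV-miR454, nearly level. It stood at 4.74 CPM in CRISPRd_miR301a-#2 and 0.963 CPM in CRISPRd_Control. Its UTR holds a 7mer-m8, but so do those of SUCNR1, SGK3 and ITPKB, which were called higher. DEPP1, also called higher, holds a 7mer-A1.

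**Figure D2:**
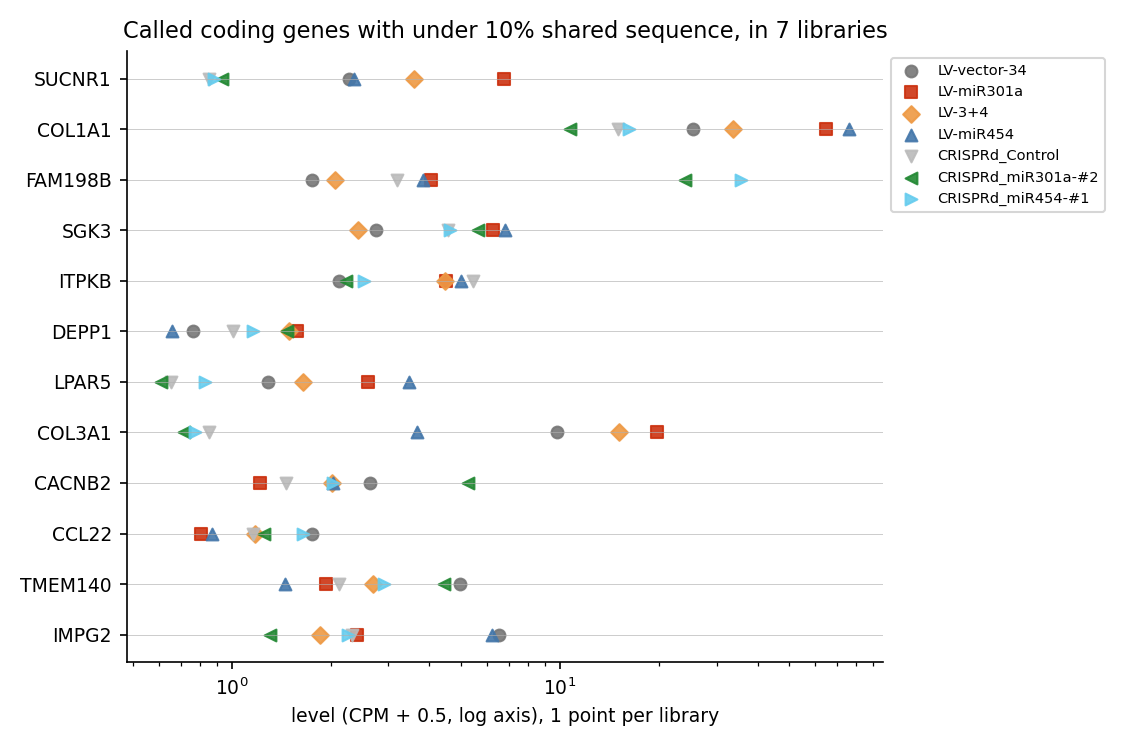
Level (CPM + 0.5, log axis) of the 12 called coding genes with under 10% shared sequence, 1 point per library for the 7 libraries, with genes ordered by their log2 ratio. COL3A1, SUCNR1, DEPP1 and IMPG2 separate the libraries with MIR301A reads (red squares, orange diamonds) from LV-vector-34 and LV-miR454. CACNB2 does so by a narrow margin, and COL1A1 is highest in LV-miR454. All 12 were called for a difference of LV-miR301a from the vector, and the share of all genes with such a split was not counted.

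Genes just on either side of the 2-fold line are given as a description. Just inside were COL3A1 (log2 ratio 1.01), PCDHGB4 (1.01) and LPAR5 (1.02). Just outside were PDGFC, a growth factor (0.96), MMP2, a matrix metalloproteinase (0.92, from 3.19 to 6.47 CPM), and BMF, a pro-apoptotic BH3-only protein (0.92, from 3.82 to 7.65 CPM), which were chosen here after their values were seen. At the edge of the read filter, 5 genes with 20 or 21 reads were kept, at log2 ratios of -1.68 to 1.66, a spread that the filter sets, since with so few reads 1 CPM is reached only where nearly all reads are in 1 library. Left out were 300 genes with 18 or 19 reads, at -1.15 to 0.95, and 1185 genes with 20 or more reads but under 1 CPM in both libraries, at -1.26 to 1.29.

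Pathways were read through 31 gene lists, each described by its counts and median beside the values over all genes. List members named here that were not called were chosen after their values were seen. Over all 14776 genes, 12.9% had a counting interval above equality and 13.1% below it. The list farthest from 0 among those with at least 10 measured genes was extracellular matrix, the collagens, laminins, integrins and glycoproteins around cells. All 30 of its measured genes had log2 ratios above 0 (median 0.35), 26 had an interval above equality and 0 below it, and COL1A1 and COL3A1 were called higher. The median was 0.33 to 0.37 under the alternative scalings, filters, pseudocounts and treatments of copies.

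Among the collagens, COL5A1, a fibril regulator, was at 40.9 CPM in the vector and 69.6 CPM in LV-miR301a (1.70-fold, 1.56 to 1.86). The basement membrane chains COL4A1 (107 and 157 CPM) and COL4A2 (247 and 331 CPM) had log2 ratios of 0.55 and 0.42. Fibronectin, FN1, was at 955 and 1277 CPM (1.34-fold, 1.31 to 1.36). The integrins ITGB6 (0.59), ITGAV (0.49) and ITGA2 (0.42), receptors for matrix proteins, lay higher than ITGB1 (0.09) and ITGA3 (0.06). The smallest log2 ratios of the list were those of FBLN1 (0.01) and LAMA3 (0.03).

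The matrix genes were less uniform in other contrasts. LV-miR301a against LV-3+4, which uses no vector library but the same LV-miR301a library, had a median of 0.20 with 28 of 30 genes above 0 and 0 called (0.339% higher and 0.224% lower over all genes, together 0.563%). LV-3+4 against the vector had a median of 0.07, with 24 of 30 above 0, and LV-miR454 against the vector 0.21, with 18 of 31. These contrasts share a library with the main one. Of contrasts that share none, LV-3+4 against LV-miR454 had a median of -0.13, with 3 genes called higher and 7 lower of 31 (6.85% over all genes). The reads of MIR454 differ in that pair as well as those of MIR301A. CRISPRd_miR301a-#2 against CRISPRd_Control had a median of -0.17, with 2 called higher and 7 lower of 30 (10.9% over all genes), among them COL5A1 (138 CPM in the control and 13.6 CPM in the knockout).

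Markers of other cell types were read beside the collagens. Of 11 fibroblast markers, 4 were measured (COL1A1, COL3A1, COL5A1 and FBN1) and 7 were under 1 CPM in both libraries. The list summed to 80.9 CPM in the vector and 162 CPM in LV-miR301a, and the 6 markers other than collagens and FBN1 to 1.78 and 2.46 CPM. COL1A2, the partner chain of COL1A1 in type I collagen, was at 0.0523 and 0.257 CPM, DCN at 0.209 and 0.359 CPM, PDGFRB at 0.314 and 0.411 CPM, and FAP had 0 counts in both. Of 11 immune markers, 9 were under 1 CPM in both libraries and the list summed to 69.2 and 68.7 CPM, most of it CD68 (64.9 and 63.8 CPM). The 12 HEK293 markers summed to 112 and 130 CPM. The label A549 was read from KRT8, NQO1 and AKR1B10. They were at 4162, 1756 and 3140 CPM in LV-miR301a and 4397, 1881 and 3248 CPM in the vector. In the same order of libraries, KRT18 was at 4063 and 4169 CPM and AKR1C1 at 2165 and 2135 CPM. CDH1 was at 120 and 102 CPM, and EPCAM only at 9.60 and 8.27 CPM. The surfactant gene SFTPC was near 0 (0.103 and 0.0523 CPM). AGER, an alveolar marker, was at 3.08 and 2.62 CPM, and the 21 alveolar and airway genes summed to 497 and 471 CPM.

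**Figure D3:**
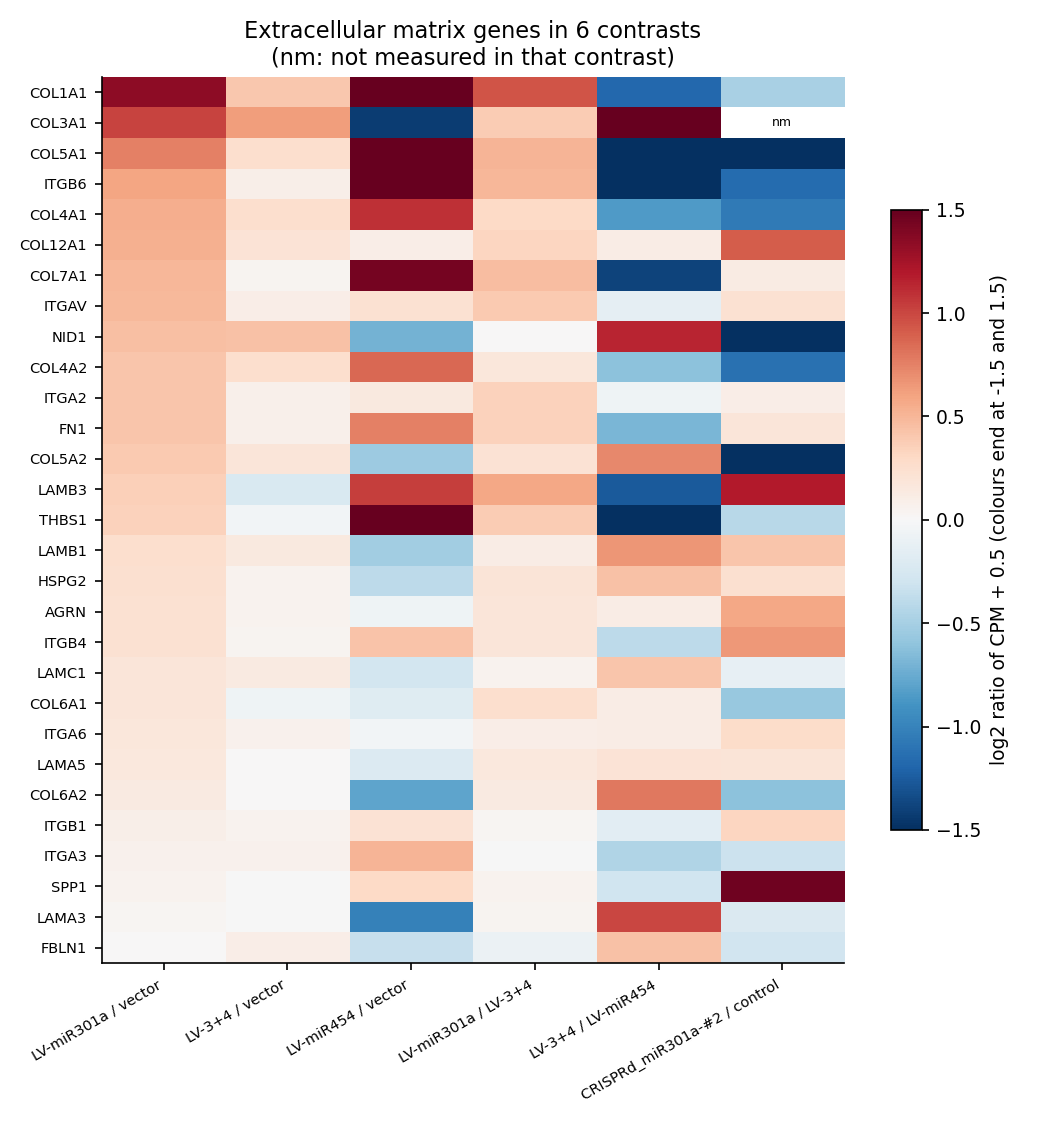
Log2 ratios of CPM + 0.5 for 29 of the 30 extracellular matrix genes measured in LV-miR301a and LV-vector-34 (rows) in 6 contrasts (columns), with colour ending at -1.5 and 1.5. The first column is above 0 throughout, and the columns for LV-3+4 over LV-miR454 and for the knockout hold both directions.

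Other lists lay nearer 0. NF-kB and inflammation had 20 of 22 genes above 0 (median 0.23), 15 intervals above equality and 0 called. Its highest members were ICAM1, an adhesion receptor for leukocytes (6.80 and 11.6 CPM, 1.70-fold, 1.36 to 2.12), IL11 (13.3 and 21.3 CPM, 1.60-fold, 1.36 to 1.88) and the neutrophil chemokine CXCL1 (23.1 and 33.1 CPM). Mesenchymal genes had 13 of 15 above 0 (median 0.22), with ACTA2 at 29.1 and 41.7 CPM and VIM at a log2 ratio of -0.03. Cholesterol and lipid genes had 22 of 26 above 0 (median 0.14), with 10 intervals above equality and 1 below, and the fatty acid desaturase SCD at 463 and 607 CPM. TGF-beta targets had 20 of 24 (median 0.12), and p53 targets 23 of 27 (median 0.11), with the BH3-only gene BBC3 at 19.9 and 28.1 CPM. All of these lists had 0 called genes. In LV-3+4 against the vector the medians, in the same order, were 0.02, 0.06, 0.09, 0.01 and -0.13. There 22 of 27 p53 targets lay below 0. In LV-miR454 against the vector, which has no MIR301A reads in either library, they were -0.12, 0.80, 0.42, 0.40 and 0.00. Both contrasts share the vector with the main one.

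Growth-related lists lay below 0. Of 32 G2 and mitosis genes, 30 were below 0 (median -0.14), 22 intervals were below equality and 0 were called. BIRC5, or survivin, was at 125 CPM in the vector and 104 CPM in LV-miR301a (0.83-fold, 0.78 to 0.88), and CDC20 at 184 and 153 CPM, while CDK1 differed less (120 and 119 CPM). In LV-3+4 against the vector the same list had a median of 0.01 with 18 of 32 above 0, and in LV-miR454 against the vector 0.08, also with 18. Its median was -0.15 in LV-miR301a against LV-3+4, -0.06 in LV-3+4 against LV-miR454, and -0.21 with 26 of 32 below 0 in CRISPRd_miR301a-#2 against CRISPRd_Control. G1/S and replication genes had 26 of 32 below 0 (median -0.08). In LV-3+4 against the vector 23 of 32 were above 0 (median 0.05), and in LV-miR454 against the vector 27 of 32 (median 0.30). The median was -0.15 in LV-miR301a against LV-3+4. It was -0.23 in LV-3+4 against LV-miR454, with 25 of 32 below 0, and -0.39 in the knockout, with 31 of 32 below. In LV-miR301a against the vector, 29 of 30 ribosomal protein genes lay below 0 (median -0.11). Against the same vector, 30 of 30 lay below 0 in LV-miR454 (median -0.17) and 25 of 30 in LV-3+4 (median -0.02). NRF2 targets, which are high in KEAP1-mutant A549, had 20 of 28 below 0 (median -0.04).

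The PI3K-AKT pathway, which carries growth factor signals, had 0 of 29 core genes and 0 of 21 brake genes called. The core genes had a median of 0.02 (range -0.22 to 0.46) and the brakes 0.07 (-0.16 to 0.50). FOXO targets had a median of 0.09 over 18 genes, and receptors and ligands 0.15 over 22, with PDGFB highest (5.65 and 8.62 CPM, 1.53-fold, 1.19 to 1.96). DICER1, which cuts microRNA precursors, was at 60.7 and 53.5 CPM, and the 13 microRNA processing genes had 0 called (median -0.07). Stress response, hypoxia, interferon, immediate early, apoptosis, epithelial and alveolar lists had medians of -0.02 to 0.10 and 0 called. Of 15 replication-dependent histone genes 4 were measured, with 0 called (median -0.08), and the mitochondrial messages were not analysed here.

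**Figure D4:**
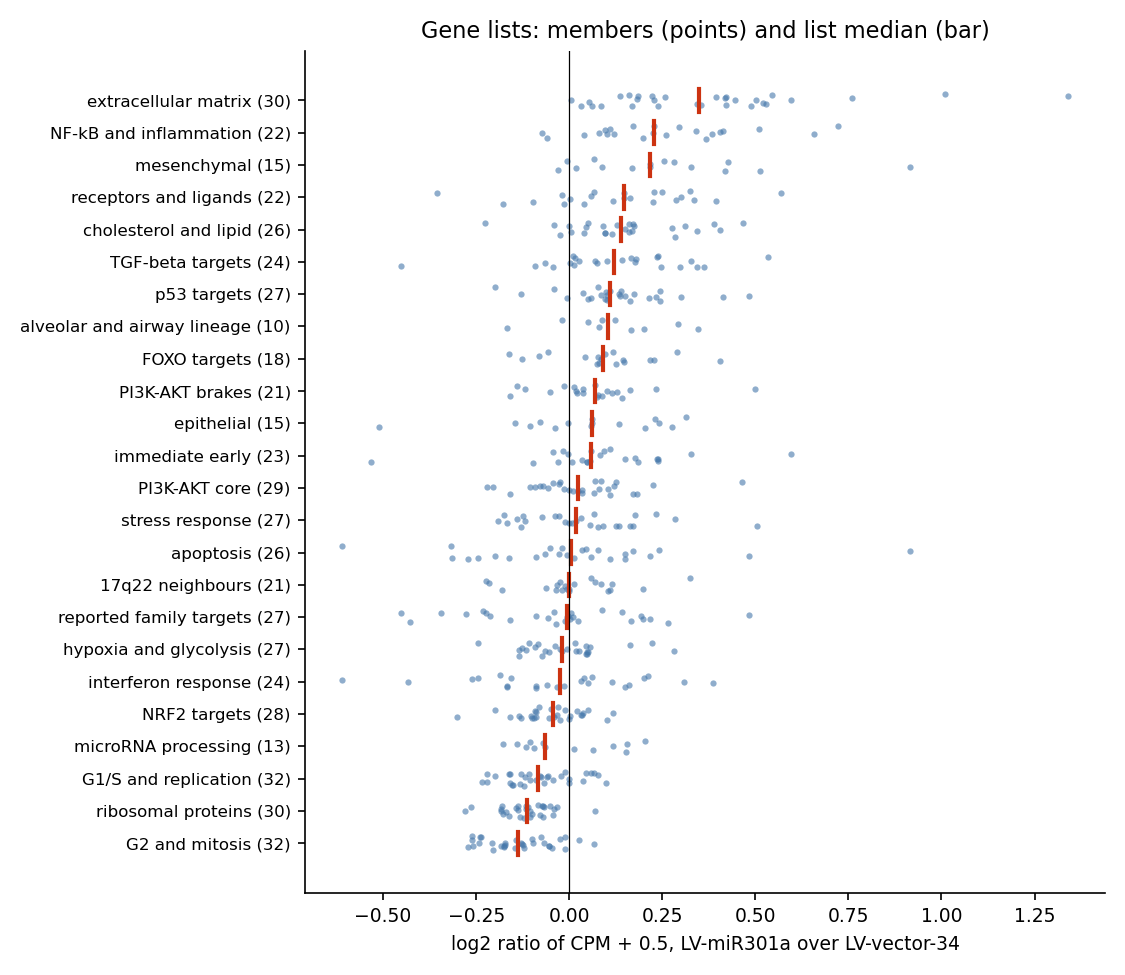
Log2 ratios (LV-miR301a over LV-vector-34) of the members of each list with at least 10 measured genes (blue points) with the list median (red bar), ordered by median. Extracellular matrix is highest at 0.35 with all 30 points above 0, and G2 and mitosis is lowest at -0.14.

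Reported targets of the family were looked up by the best site in their UTR. Of 30 reported targets, 27 were measured and 0 were called, with a median log2 ratio of -0.01 that was 0.01 when library totals replaced the trimmed mean of M values. The 7 targets with an 8mer all lay below 0 (median -0.23), and 5 of the 7 had an interval below equality. The 17 targets with a shorter site had a median of 0.00, with 1 interval below equality and 4 above. The 3 without a site had a median of 0.02.

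ACVR1 was at 25.4 CPM in the vector and 18.7 CPM in LV-miR301a, a ratio of 0.74 (0.64 to 0.85), with 21.3 CPM in LV-3+4 and 27.6 CPM in LV-miR454. INHBA was at 6.02 and 4.26 CPM (0.71, 0.53 to 0.95), with 3.29 CPM in LV-3+4 and 1.64 CPM in LV-miR454. RUNX3 was at 27.6 and 21.7 CPM (0.78, 0.69 to 0.89), with 27.8 CPM in LV-3+4, level with the vector, and 19.3 CPM in LV-miR454. PPARG was at 54.1 and 46.3 CPM (0.86, 0.78 to 0.94), with 51.2 CPM in LV-3+4 and 32.3 CPM in LV-miR454. LV-miR301a was thus below the vector for these 4, and LV-3+4, which has about as many MIR301A reads, lay between them for ACVR1 and PPARG. TSC1, an inhibitor of mTORC1 with 2 8mers, was at 19.3 and 17.2 CPM (0.89, 0.77 to 1.04), and BTG1, an antiproliferative gene, at 156 and 156 CPM.

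Targets without an 8mer lay on both sides of equality. TGFBR2 was at 86.9 and 87.5 CPM, SMAD4 at 38.2 and 37.3 CPM and SMAD5 at 50.5 and 48.6 CPM, each with an interval that held equality. CYLD, a deubiquitinase that limits NF-kB, was at 13.97 and 11.4 CPM (0.82, 0.68 to 0.98). TIMP2 (1.14, 1.09 to 1.20), BCL2L11 (1.16, 1.03 to 1.31), DLC1 (1.15, 1.01 to 1.31) and BBC3 (1.41, 1.23 to 1.61) had intervals above equality. Intervals that held equality were also those of NKRF, PIAS3, FOXF2, TP63, NDRG2, ABCA1, CSF1, HOXA5 and ZEB1. MEOX2 and ESR1 were among the 3 targets that did not pass the read filter.

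Over all measured coding genes with a UTR, the 8mer also stood on the lower side. Of 426 genes with an 8mer, 60.3% lay below 0 (median -0.04), and of 10170 genes with no site 49.2% did (median 0.00). A counting interval below equality was found for 25.4% of the 8mer genes and one above it for 8.0%. For genes with no site these shares were 13.3% and 13.7%. Over all UTR lengths, genes whose best site was a 7mer-m8 (1674) or a 7mer-A1 (473) each had a median of 0.01, and all 2573 genes with any site had a median of -0.00 that was 0.02 with library totals. Genes are not replicates, so no test is attached to these shares, which describe 2 libraries.

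UTR length moved with the ratio as well and is given beside the sites. Genes with no site had medians of -0.03, 0.01 and 0.04 with UTRs of up to 811, 812 to 2188 and at least 2189 bases. The 8mer genes in these classes had -0.19 (29 genes), -0.09 (102 genes) and -0.02 (295 genes), below the genes without a site in each class. The 7mer-m8 genes also lay below them in each class, by less, with -0.06 (122 genes), -0.02 (465 genes) and 0.02 (1087 genes). Intervals below equality were found for 34.4%, 18.3% and 9.57% of these, beside 18.7%, 11.7% and 6.91% of the genes without a site. The 7mer-A1 genes had -0.04, 0.00 and 0.02. A site was held by 20.2% of all 12743 measured genes with a UTR, by 6 of the 28 called higher (21.4%), UGT1A1 with an 8mer among them, and by 3 of the 30 called lower (10.0%).

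Elsewhere in the table the 8mer genes behaved as follows. LV-3+4 against the vector had 17.3% of 423 8mer genes below equality and 5.4% above, beside 8.2% and 10.8% of genes with no site, and LV-miR454 against the vector had 33.1% and 25.3% beside 29.2% and 30.4%. Both share the vector with the main contrast. LV-miR301a against LV-3+4, which shares LV-miR301a, had 15.3% and 9.2% beside 12.98% and 11.6%. Of contrasts without a shared library, LV-3+4 against LV-miR454 had 32.2% and 30.7% beside 30.8% and 30.2%. Its medians for 8mer and no site differed by UTR class. They were 0.03 and 0.02 (long), -0.07 and 0.00 (middle), and -0.19 and -0.01 (short, 28 8mer genes). In that pair LV-3+4 has 34 MIR301A counts and LV-miR454 has 468 MIR454 counts, and both microRNAs share the seed. In CRISPRd_miR301a-#2 against CRISPRd_Control, 27.8% of 421 8mer genes were below and 36.6% above, beside 36.2% and 30.1% of genes with no site. There the 8mer genes had a median of 0.04 and those with no site -0.04. Within UTR classes the knockout medians for 8mer and no site were 0.07 and -0.00 (long), -0.00 and -0.04 (middle), and -0.17 and -0.06 (short, 28 8mer genes), so the short class had the reverse order.

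**Figure D5:**
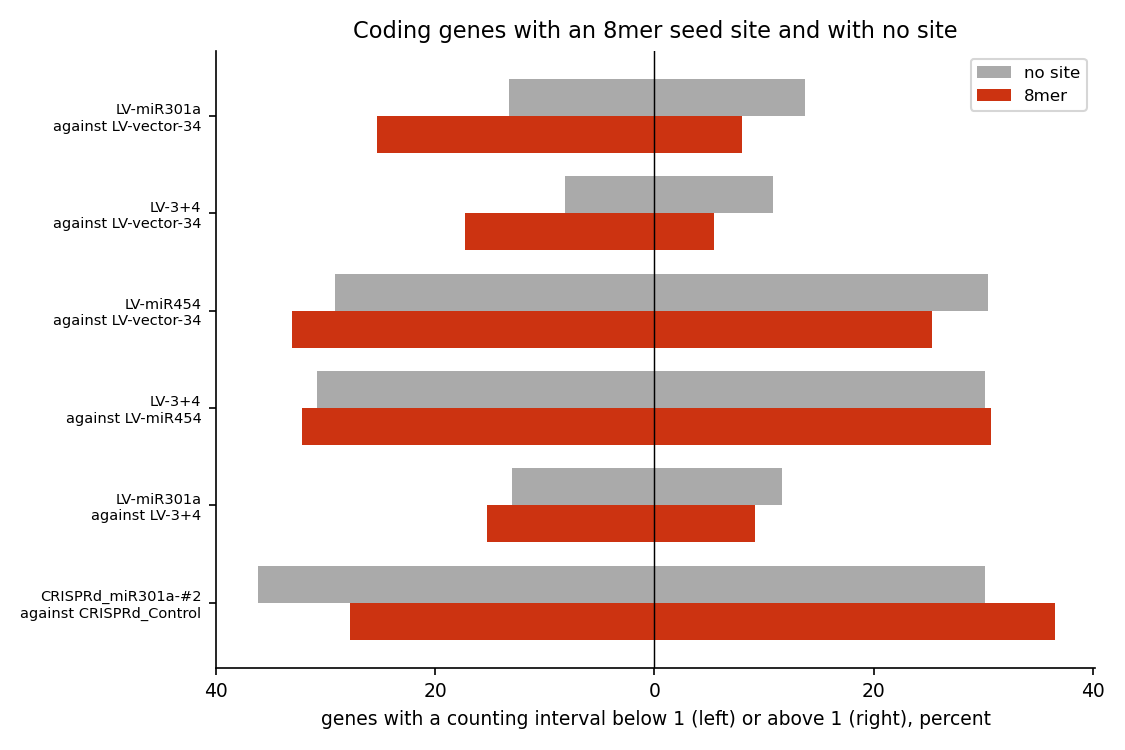
Percent of coding genes whose counting interval lies below equality (bars to the left) or above it (bars to the right), for genes with an 8mer seed site (red) and no site (grey), in 6 contrasts. In LV-miR301a against LV-vector-34 the red bars are 25.4% left and 8.0% right, and in CRISPRd_miR301a-#2 against CRISPRd_Control they are 27.8% left and 36.6% right.

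The called genes were followed into the contrasts that share no library with the main one. The labels of LV-3+4 and LV-miR454 differ by miR-301a, but their reads differ at both loci. MIR301A had 34 and 0 counts in them, and MIR454, with the same seed, 0 and 468. In LV-3+4 against LV-miR454, 37 of the 52 higher genes were measured, of which 10 were called higher and 8 lower. The background there was 3.71% higher and 3.14% lower. Of the 55 lower genes 36 were measured, with 15 called lower and 3 higher. Genes called the same way included RAD51L3-RFFL, KIAA0408, TICAM2, LOC400927-CSNK1E, ATP5MF-PTCD1, C4A and RN7SL1, which are readthrough genes, genes with partners or the signal recognition particle RNA. KIAA0408 had 53 counts in the vector and 0 in LV-miR301a, and was at 4.01 CPM in LV-miR454 and 0 in LV-3+4. TICAM2, an adaptor of Toll-like receptor 4, had 56 and 0 counts. Among the 12 called coding genes with little shared sequence, COL3A1 and IMPG2 were called the same way there, and COL1A1, SGK3 and LPAR5 the opposite way.

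In CRISPRd_miR301a-#2 against CRISPRd_Control, labelled as a knockout of the miR-301a precursor, 34 of the 52 higher genes were measured, with 5 called lower and 8 higher. Of the 55 lower genes 38 were measured, with 10 called higher and 9 lower. The background there was 6.72% higher and 4.15% lower. Those called the opposite way included SULT1A4, SERF1A, ATP5MF-PTCD1, C4A, LOC388436, LOC107986158, LOC107987477 and LOC110384692, and also ITPKB, CACNB2 and TMEM140 among the genes with little shared sequence. FAM198B was called higher in both. Neither CRISPRd library has MIR301A reads, so the counts do not check the knockout.

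The 4 lentiviral libraries were also fitted together, with the miR301a and miR454 labels as terms, which leaves 1 residual degree of freedom. With the quasi-likelihood test of edgeR, adjusted by Benjamini and Hochberg, 0 of 14653 genes passed an adjusted p of 0.05 for the miR301a label (0%). An unadjusted p under 0.05 was found for 582 genes. As a share of all genes that is below the 0.05 that uniform p values would give, so it is no excess. DESeq2 called 2, both lower, SENP3 and RN7SL1. Among the 5 higher genes with the smallest p were MIR301A, BCL2L2-PABPN1, UGT1A1 and COL3A1, and the 5 lower ones KIAA0408, SENP3, LOC400927-CSNK1E, C4A and TGFB2-OT1. COL3A1 had a log2 coefficient of 1.59 (SE 0.31, adjusted p 0.838 by edgeR), UGT1A1 0.98 (SE 0.18) and SENP3 -1.37 (SE 0.19), both with the same adjusted p. COL1A1 had a coefficient of 0.07 (SE 0.57, adjusted p 0.987 by edgeR), since it was higher in LV-miR301a than in the vector and lower in LV-3+4 than in LV-miR454. The fit takes the labels as given, although the MIR454 reads go against 2 of them.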

How the data were processed

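RNA of A549 lines was sequenced as polyA RNA, per the labels. The authors deposited expected counts per gene, made with RSEM 1.3.3 and Bowtie2 2.3.5.1 on GRCh38.p13, per the submitters' processing notes. No annotation release or use of strand is given in the sources used here. Totals of the 7 libraries were 18874848 to 19172634 counts. The table's 44576 entries became 39736 genes once 4840 numbered copies were summed and the counts rounded. Date-like entries that name no gene (0.0056% of counts) were left out.

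CPM used trimmed mean of M values (TMM) factors over the 7 libraries. Single libraries were compared by the ratio of CPM plus 0.5, with exact 95% Clopper-Pearson intervals that cover counting error only. A count of 0 was set to a floor of 3 counts per library for folds. Folds given as at least are taken against this floor and are not interval bounds. The interval of CDRT4, for example, began at 36.2-fold higher. The additive fit used edgeR 4.0.16 (R 4.3.3) on genes with at least 1 CPM in 2 libraries, with DESeq2 1.42.0 as an alternative. Sites and shared 32-base words came from GENCODE release 29, microRNA sequences from RefSeq, and other steps used Python 3.11.15, pandas 2.3.3, numpy 2.4.6 and scipy 1.17.1. The size rule was tested on simulated data.

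The genes named by rule were the unit on 17q22, the reported targets, up to 4 called genes of each list, the 15 called genes in each direction with 5 CPM or more whose interval bound lay farthest from equality, up to 8 called the same way in LV-3+4 against LV-miR454 and up to 8 called the opposite way in the knockout, and the 5 smallest p in each direction of the additive fit. Other genes, among them the called coding genes with under 10% shared words that this rule does not reach, were chosen after their values were seen. The members and gene lists were chosen with earlier results of these data known. Alternatives changed the scaling, read filter, pseudocount, treatment of copies, fold and site class. Some genes and sites that the rule names are not reported here.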

Additional observations from a re-analysis of the deposited data

Results flagged for a closer look

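In 11 genes the log2 ratio in LV-miR301a against LV-vector-34 and that in LV-3+4 against LV-miR454 were both called and had opposite signs. Each rests on 4 libraries, 1 per group, and the difference between the contrasts was not tested. COL1A1 had 1.34 and -1.18, SGK3 had 1.18 and -1.48, and LPAR5 had 1.02 and -1.07. CDRT4 had 3.92 and -2.23, and its readthrough partner TVP23C-CDRT4 had -1.09 and 1.74. SERF1A had 3.34 and -1.73, and ASDURF had 1.497 and -1.32. WASH7P, a pseudogene, had 1.26 and -1.69. NUDT4B had -2.37 and 2.59, and the readthrough gene SYS1-DBNDD2 had -1.17 and 3.14. MIR454 had 1.95 and -5.66, where the labels would give it reads in LV-3+4 and none in LV-miR301a. For CDRT4, SERF1A, MIR454, NUDT4B and SYS1-DBNDD2, each at 0 counts in at least 1 of the libraries, these values depend on the 0.5 CPM added.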

How the results depend on the processing

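No paired analysis was possible because each group is 1 library, and no library could be left out of a pair. Higher and lower calls, 52 and 55, became 12 and 15 at 5 CPM or more, 13 and 18 at 100 or more reads, 103 and 93 with 0.1 CPM added, 12 and 20 with 2 CPM added, 164 and 170 with copies kept separate, 213 and 167 at 1.5-fold, 21 and 20 at 3-fold, and 8 and 4 over coding genes with under 10% shared words, an alternative chosen after seeing the data. Called genes with the same and the opposite call in LV-3+4 against LV-miR454 became 9 and 3 at 5 CPM, 9 and 3 at 100 reads, 38 and 24 with 0.1 CPM added, 6 and 3 with 2 CPM added, and 78 and 59 with copies separate, and those with the opposite call became 19 with no filter. In the knockout, the same and opposite calls became 7 and 1 at 5 CPM, 8 and 3 at 100 reads, 36 and 30 with 0.1 CPM added, 4 and 2 with 2 CPM added, and 56 and 66 with copies separate. These contrasts were not run with TMM over the pair alone, which gives no factors for them. The cause of these moves was not tested.

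The median log2 ratio of genes with any site became -0.0446 for 8mers only, -0.0122 for 2 or more sites, 0.0202 with library totals, 0.00795 with DESeq2 size factors and -0.00865 without genes that have copies. The 8mer median, -0.04461 in the main setting, became -0.02442 with library totals. The no-site median, 0.00285 in the main setting, rose there as well, so the 8mer genes stayed below those with no site. The no-site median became 0.0233 with library totals, 0.01135 with DESeq2 size factors, -0.0033 with TMM over the pair, -0.0026 at 5 CPM, -0.0042 with copies separate and -0.0035 without genes that have copies. The additive fit had 2 calls with DESeq2 and 0 under each edgeR alternative. Of 300 list medians under the alternatives 297 stayed within the limits set. Of 655 values of named genes 655 did, but for named genes with a count of 0 in either library this decides nothing. The limit of a named gene was drawn from its counting interval, which for such genes has no finite width on the log2 scale. CDRT4, SERF1A and RAD51L3-RFFL are examples, and their log2 ratios depend on the 0.5 CPM added. Depth limits the low genes, where 3 counts are 0.157 CPM in the vector.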

Other observations

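Among genes with an 8mer, those farthest below equality in LV-miR301a by the upper end of their interval, chosen after their values were seen, include CALM2, one of the calmodulin genes, at 637 CPM in the vector and 499 CPM in LV-miR301a (ratio 0.783, 0.763 to 0.805). FOSL1, an AP-1 subunit, was at 40.4 and 27.8 CPM, THOP1, a peptidase, at 49.0 and 32.3 CPM, HPRT1, the purine salvage enzyme, at 61.9 and 44.0 CPM, and SMARCD2, a chromatin remodelling subunit, at 89.1 and 64.0 CPM. None of these 5 passed 2-fold. In LV-3+4 all 5 lay between LV-miR301a and the vector. LV-miR454 lay above the vector for CALM2 (681 CPM), FOSL1 (89.0 CPM), THOP1 (65.0 CPM) and HPRT1 (69.6 CPM), and below it for SMARCD2 (82.4 CPM). All 5 were lower in CRISPRd_miR301a-#2 than in CRISPRd_Control, FOSL1 at 19.1 and 105 CPM, but this does not hold for the ranking they were picked from. Of the genes ranked above CALM2 and not picked, TMEM250, MYBL1 and CPPED1 were lower there too. RTCA and MIGA1 were higher, RTCA at 29.4 CPM in CRISPRd_miR301a-#2 and 24.8 CPM in CRISPRd_Control. Over all 421 8mer genes in that contrast, 27.8% lay below equality and 36.6% above.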
